A study of Saccharomyces cerevisiae with 6 samples.

Results

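The genes for mitochondrial ribosomal proteins were compared between F3, a Saccharomyces cerevisiae mutant selected for SO2 resistance by evolutionary engineering, and its reference strain. They were found by their standard symbols: every gene called MRPL, MRPS, MRP or RSM followed by a number was taken, except MRP8, which gave 66 of the 6256 genes on the array. Total RNA came from 3 cultures of each strain, shaken in yeast minimal medium and collected early in exponential growth, with no sulfite addition named in the labels, which also mention overnight growth of both strains in YPD. Each culture was measured on 1 one-colour Agilent array. The labels give no genotype for either strain, and F3 is a single selected mutant.

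Mitochondria carry their own ribosome, which in yeast makes the few membrane proteins of the respiratory chain and ATP synthase that the mitochondrial genome encodes, and 1 of its own proteins, Var1. All other proteins of that ribosome are encoded in the nucleus, made in the cytosol and imported. Many of them belong to families shared with bacterial ribosomes, and others are found only in mitochondria. The products of 38 of the 66 genes belong to the large subunit, which forms peptide bonds, and those of 28 to the small subunit, which reads the messenger RNA. In the common nomenclature for ribosomal proteins, family names that begin with u are universal, those that begin with b are bacterial and those that begin with m are mitochondrial.

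All levels below are log2 signal minus the 75th percentile of the same array, averaged over the 2 spots of a probe, and a difference is F3 minus reference. The levels of different genes are not compared with each other, since each probe has its own response. A gene was called at an adjusted p under 0.05 from limma over all 5948 genes tested, those well above background on at least 3 of 6 arrays. All 66 mitochondrial ribosomal genes passed that filter, and each was well above background on all 6 arrays. The 75th percentile of signal intensity was 8314 to 9534 for F3 and 2791 to 4973 for the reference, with saturation of no gene probe. The F3 arrays shared 1 slide and scan, and the reference arrays were scanned on another day on 2 other slides. The software's mark for a good spot grid was unset on all 3 F3 arrays and set on all 3 reference arrays. So was its mark for negative controls in range, with a mean net signal of 95.6 to 97.1 on the F3 arrays and 27.4 to 32.4 on the reference arrays. An effect of the strain and one of the day of scanning cannot be told apart. Scaling to spike-in RNAs in place of the 75th percentile added 1.71 to every difference, so each fall among the 66 genes holds only relative to the 75th percentile. The spike-ins lay between -1.31 and -1.29 relative to the 75th percentile on the F3 arrays, but between 0.07 and 0.94 on the reference arrays, where replicate 3 was the highest.

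Relative to the 75th percentile of the array, the genes for the mitochondrial ribosome had a median log2 difference of 0.09, against 0.05 over all genes tested, and of 0.14 without F3 array 3. With spike-in scaling these medians were 1.80 and 1.76, and 65 of the 66 genes were called higher. limma called 45 of 66, a share of 68.2%, against 79.7% of all genes tested. Of these, 30 were higher in F3, or 45.5% (41.5% of all genes), and 15 were lower, or 22.7% (38.2% of all genes), while 21 did not pass. F3 and reference arrays were fully separate in 50 of the 66 genes, against 82.4% of all genes. The differences of the 66 genes were also narrower in range. Called differences of at least 2-fold were seen for 2 genes that rose and 1 that fell, against 32.8% of all genes tested in either direction. The log2 differences of 63 of 66 (95.5%) lay within 1 of 0, against 67.2% over all genes, and their SD over genes was 0.51, against 1.33. These shares are descriptions, and no test was made over the list.

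**Figure D1:**
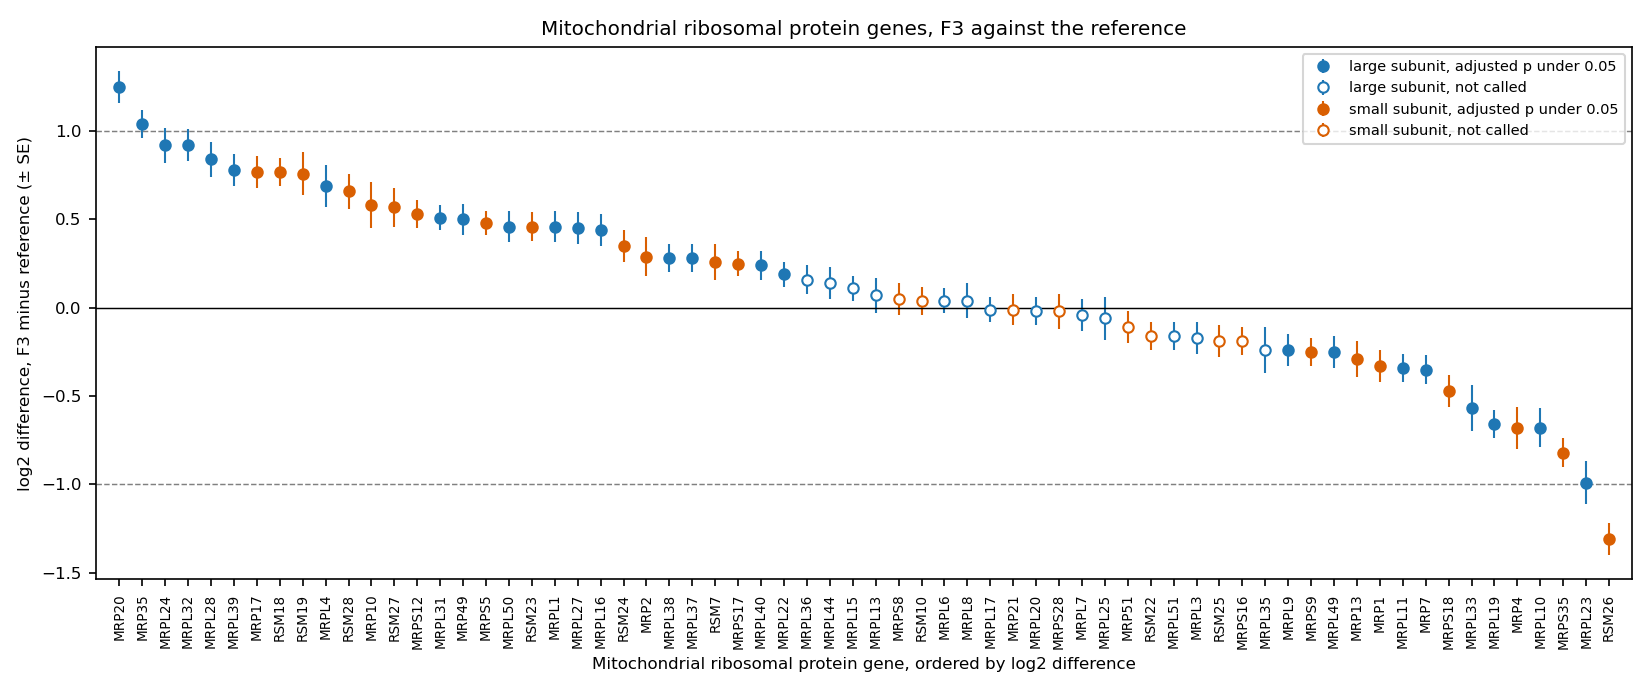
Log2 difference (F3 minus reference, y axis, ± SE of the fit) of each of the 66 mitochondrial ribosomal protein genes, ordered from the highest to the lowest; blue is the large and orange the small subunit, filled points passed an adjusted p of 0.05 and open points did not, and dashed lines mark a 2-fold difference. MRP20 and MRP35 lie above the upper line at 1.25 and 1.04 and RSM26 below the lower one at -1.31.

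The group as a whole was compared array by array. Relative to the mean of each gene in the reference, the median over the 66 genes was 0.13, 0.19 and 0.05 on F3 arrays 1 to 3, and -0.01, -0.06 and 0.08 on reference arrays 1 to 3. F3 array 3 was thus below reference array 3 in this summary, and the medians of the strains overlapped. The spread of single genes between cultures was small in both strains, with a median SD of 0.08 in F3 and 0.10 in the reference, against 0.09 and 0.11 over all genes tested.

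The subunits gave similar counts, to be read against 41.5% higher and 38.2% lower over all genes tested. Of the 38 large subunit genes 17 rose and 8 fell, with a median difference of 0.13, and of the 28 small subunit genes 13 rose and 7 fell, with a median of 0.05. The small subunit median was 0.01 without F3 array 1 or reference array 2, 0.09 without F3 array 3 and 0.10 without reference array 3. Families shared only with bacteria had 7 of 14 genes higher and 2 lower, with a median of 0.31. Universal families had 13 of 27 higher and 9 lower (median 0.05), and families found only in mitochondria had 10 of 24 higher and 4 lower (median 0.09). Within the large subunit none of the 14 mitochondria-only genes was called lower, 5 rose and 9 did not pass. The absence of falls depended on the processing. MRPL51 was called lower with normexp, quantile normalization, the authors' values and without reference array 2, and MRPL35 without reference array 1. Of the 15 universal ones 7 rose (46.7%) and 6 fell (40%), near the shares over all genes. Within the small subunit, 4 of the 10 mitochondria-only genes fell and 5 rose. The differences between these classes were not tested.

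Among the genes that rose, MRP20 (YDR405W) changed most. Its product, of family uL23, lies beside the exit of the tunnel through which the new protein leaves the large subunit. MRP20 had levels of -0.22, -0.12 and -0.17 on the F3 arrays, against -1.46, -1.26 and -1.54 on the reference arrays. Every F3 array was more than 1 log2 unit above every reference array, and the difference was 1.25 ± 0.09 (SE), or 2.38-fold, with an adjusted p of 2.5e-06 (limma). MRP35 (YNL122C), of family bL35, followed, with levels of 0.10, -0.02 and 0.01 in F3 and -0.96, -1.13 and -0.93 in the reference (difference 1.04 ± 0.08 SE, adjusted p = 4.9e-06, limma). Its strains were likewise separate, which was a condition for the genes picked here as the largest rises and falls.

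The next rises were those of large subunit genes as well. MRPL24, of family bL28, had levels of -1.39, -1.27 and -1.49 in F3 and -2.46, -2.34 and -2.12 in the reference, a difference of 0.92 ± 0.10 (SE). MRPL32, of family bL32, whose precursor is cut inside yeast mitochondria by the m-AAA protease, had levels of -0.91, -1.05 and -1.11 in F3 and -1.95, -2.07 and -1.81 in the reference, a difference of 0.92 ± 0.09. The values of both genes were separate between strains. MRPL28, of family mL40 in the central protuberance, had levels of -1.10, -1.05 and -1.27 in F3 and -2.10, -2.01 and -1.82 in the reference. MRPL39, of family bL33, had levels of -1.02, -1.18 and -1.15 in F3 and -1.95, -1.98 and -1.76 in the reference. MRPL28 differed by 0.84 ± 0.10 and MRPL39 by 0.78 ± 0.09 (SE), again with no overlap, and the adjusted p of the 4 genes lay between 2.5e-05 and 5.9e-05 (limma).

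In the small subunit MRP17 and RSM18 rose by the same amount. They belong to families bS6 and bS18, which in bacteria bind each other on the platform of the subunit. MRP17 had levels of 0.20, 0.23 and 0.04 in F3 and -0.67, -0.71 and -0.46 in the reference (difference 0.77 ± 0.09 SE, adjusted p = 7.4e-05, limma). RSM18 had levels of 0.91, 0.79 and 0.78 in F3 and -0.02, 0.01 and 0.18 in the reference (difference 0.77 ± 0.08, adjusted p = 3.6e-05, limma). Both were separate between the strains. The other platform genes went other ways: MRPS18 (family uS11) fell, while MRPS28 (uS15) differed by -0.02 ± 0.10 and MRP21 (bS21) by -0.01 ± 0.09 (adjusted p = 0.899, limma). MRP21 had levels of -2.12, -2.34 and -2.13 in F3 and -2.12, -2.30 and -2.13 in the reference. The arrays of the strains overlapped in both genes.

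The gene with the largest fall was RSM26 (YJR101W), whose product of family mS42 has the fold of a manganese superoxide dismutase. It had levels of -2.65, -2.70 and -2.65 in F3, against -1.48, -1.40 and -1.19 in the reference. The F3 arrays agree within 0.03 (SD), and the difference of -1.31 ± 0.09 (SE) was 2.48-fold, with an adjusted p of 1.7e-06 (limma). MRP1 (family mS43), which forms a pair with Rsm26 in the yeast mitochondrial ribosome and shares its fold, fell as well, with levels of -0.40, -0.18 and -0.40 in F3 and 0.08, -0.12 and 0.03 in the reference (difference -0.33 ± 0.09, adjusted p = 0.011, limma). F3 array 2 and reference array 2 lay close to each other, without overlap.

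MRPL23 (YOR150W), of family uL13, had levels of -1.79, -1.64 and -1.97 in F3 and -0.82, -0.98 and -0.62 in the reference, a difference of -0.99 ± 0.12 (SE, adjusted p = 6.4e-05, limma). MRPS35 (YGR165W), of the mitochondria-only family mS45, had levels of -0.80, -0.66 and -0.77 in F3 and 0.09, -0.02 and 0.17 in the reference (-0.82 ± 0.08, adjusted p = 2.0e-05, limma). MRPL23 lay just inside a 2-fold difference, and neither gene had overlapping arrays. MRPL10, of family uL15, had levels of -1.55, -1.41 and -1.52 in F3 and -0.85, -0.98 and -0.61 in the reference (-0.68 ± 0.11, adjusted p = 3.4e-04, limma). MRP4, of family uS2, had levels of -0.35, 0.03 and -0.29 in F3 and 0.50, 0.59 and 0.32 in the reference (-0.68 ± 0.12, adjusted p = 7.5e-04, limma). F3 array 2 was the highest of its strain for MRP4 but stayed below every reference array. MRPL33, of family uL30, had levels of -2.48, -2.64 and -2.65 in F3 and -2.16, -2.17 and -1.73 in the reference (-0.57 ± 0.13, adjusted p = 0.0029, limma). MRPS18 had levels of -1.16, -1.14 and -1.08 in F3 and -0.61, -0.80 and -0.56 in the reference (-0.47 ± 0.09, adjusted p = 9.2e-04, limma). For MRPL33 the reference array 3 stood above the other two, and the strains were separate for both genes.

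**Figure D2:**
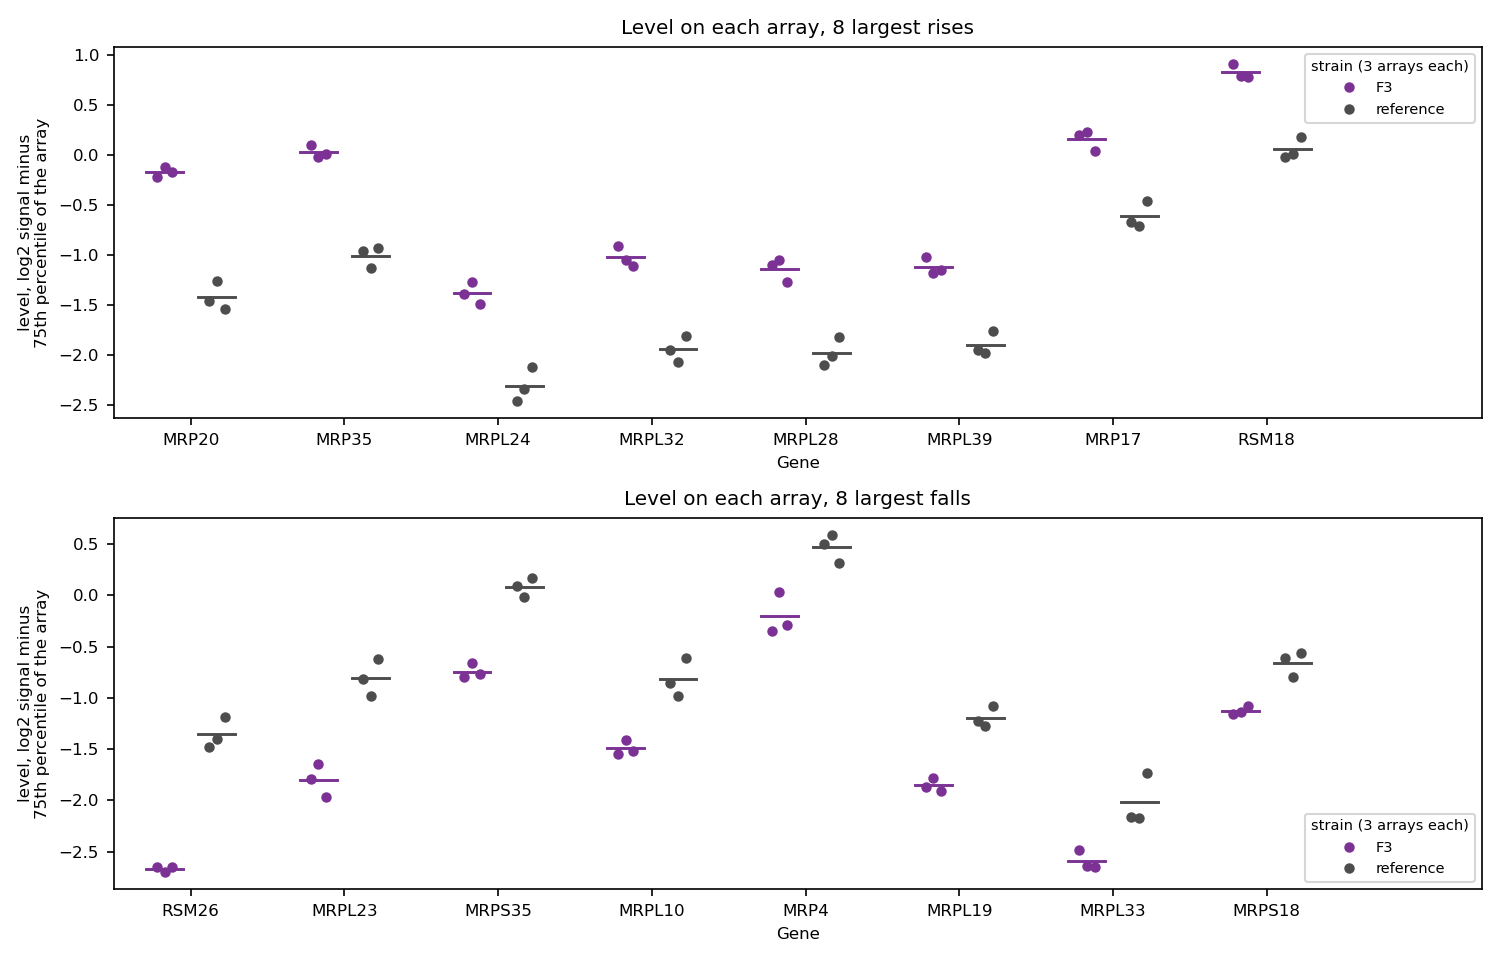
Level on each array (y axis, log2 signal minus the 75th percentile of the array) of the 8 genes with the largest rises (upper panel) and the 8 with the largest falls (lower panel); points are arrays, 3 for F3 (purple, left) and 3 for the reference (grey, right) of each gene, and bars are means. Separate arrays of the strains were a condition for the choice of these 16 genes. The means are -0.17 in F3 and -1.42 in the reference for MRP20, and -2.67 in F3 and -1.36 in the reference for RSM26.

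By the place of the protein in the ribosome, calls in both directions were seen in 3 of 8 groups: the peptidyl transferase centre and the head and platform of the small subunit. RSM26 and MRP1, among these groups, were put together by their shared fold and not by place. The groups were made after values were seen, and the counts by group were not tested. Of the genes outside the naming rule only MNP1 was placed. NAM9 (-0.34) and VAR1 (-3.02), both called lower, and SWS2 (0.40), called higher, are thus in no group, and the counts do not cover every protein of a site. Of all genes tested, 41.5% were called higher and 38.2% lower. At the tunnel exit 4 of 6 genes rose: after MRP20, MRPL4 (family uL29) differed by 0.69 ± 0.12 (SE), and MRPL40 (uL24) and MRPL22 (uL22) by 0.24 ± 0.08 and 0.19 ± 0.07. MRPL13 and MRPL3, of the mitochondria-only families mL50 and mL44, differed by 0.07 and -0.17 and did not pass. Near the peptidyl transferase centre, where peptide bonds are formed, MRPL16 (uL16) rose by 0.44 ± 0.09 and MRP7 (bL27) fell by 0.35 (SE 0.08, adjusted p = 0.0034, limma). MRP7 had levels of -0.52, -0.39 and -0.42 in F3 and 0.01, -0.17 and -0.10 in the reference, and the strains were separate. In the central protuberance only MRPL28 of 5 genes passed, and the others, MRPL36, MRPL7, MRPL17 and MRPL35, differed by 0.16, -0.04, -0.01 and -0.24. MRPL36 (bL31) had levels of -0.26, -0.25 and -0.32 in F3 and -0.43, -0.52 and -0.34 in the reference, close but without overlap (0.16 ± 0.08, adjusted p = 0.094, limma).

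At the stalk that recruits translation factors all 3 genes were called lower, against 38.2% of all genes tested. Its base is formed by the families uL10 and uL11. MRPL11 (uL10) had levels of -0.12, -0.01 and -0.15 in F3 and 0.22, 0.17 and 0.33 in the reference, a difference of -0.34 ± 0.08 (SE, adjusted p = 0.0043, limma). MRPL19 (uL11) had levels of -1.87, -1.78 and -1.91 in F3 and -1.23, -1.27 and -1.08 in the reference, a difference of -0.66 ± 0.08 (adjusted p = 7.7e-05, limma). Both were separate between strains. MNP1, the gene for the stalk protein itself (family bL12), whose symbol lies outside the naming rule, had levels of 1.28, 1.34 and 1.21 in F3 and 1.41, 1.44 and 1.54 in the reference (-0.19 ± 0.08, adjusted p = 0.046, limma). The MNP1 call was lost without F3 array 1 (-0.19) or 3 (-0.16), without reference array 2 (-0.20) or 3 (-0.15), with a replicate block (-0.19), with quantile normalization (-0.15) and in the authors' values (-0.14).

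In the small subunit, MRPS12 (uS12), which lies at the decoding site, had levels of 1.66, 1.66 and 1.78 in F3 and 1.25, 1.10 and 1.18 in the reference (difference 0.53 ± 0.08 SE, adjusted p = 2.5e-04, limma). RSM19 (uS19), a protein of the head, had levels of -0.50, -0.44 and -0.58 in F3 and -1.31, -1.46 and -1.02 in the reference (0.76 ± 0.12, adjusted p = 3.0e-04, limma). MRPS12 and RSM19 were the only 2 of the 66 genes that are direct neighbours in the gene order of the RefSeq annotation, and both rose without overlap. Of the other head genes, MRP2 (uS14) and RSM7 (uS7) differed by 0.29 and 0.26 and MRPS9 (uS9) by -0.25, all called, and RSM10 (uS10) by 0.04, not called. In the body, MRPS5 (uS5) and MRPS17 (uS17) rose by 0.48 and 0.25, and MRPS8 and MRPS16 differed by 0.05 and -0.19 and did not pass. MRP51 (bS1), in which mutations suppress defects in the leader of a mitochondrial messenger RNA, had levels of 0.99, 1.19 and 0.98 in F3 and 1.26, 1.08 and 1.16 in the reference, which overlapped (-0.11 ± 0.09, adjusted p = 0.264, limma).

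**Figure D3:**
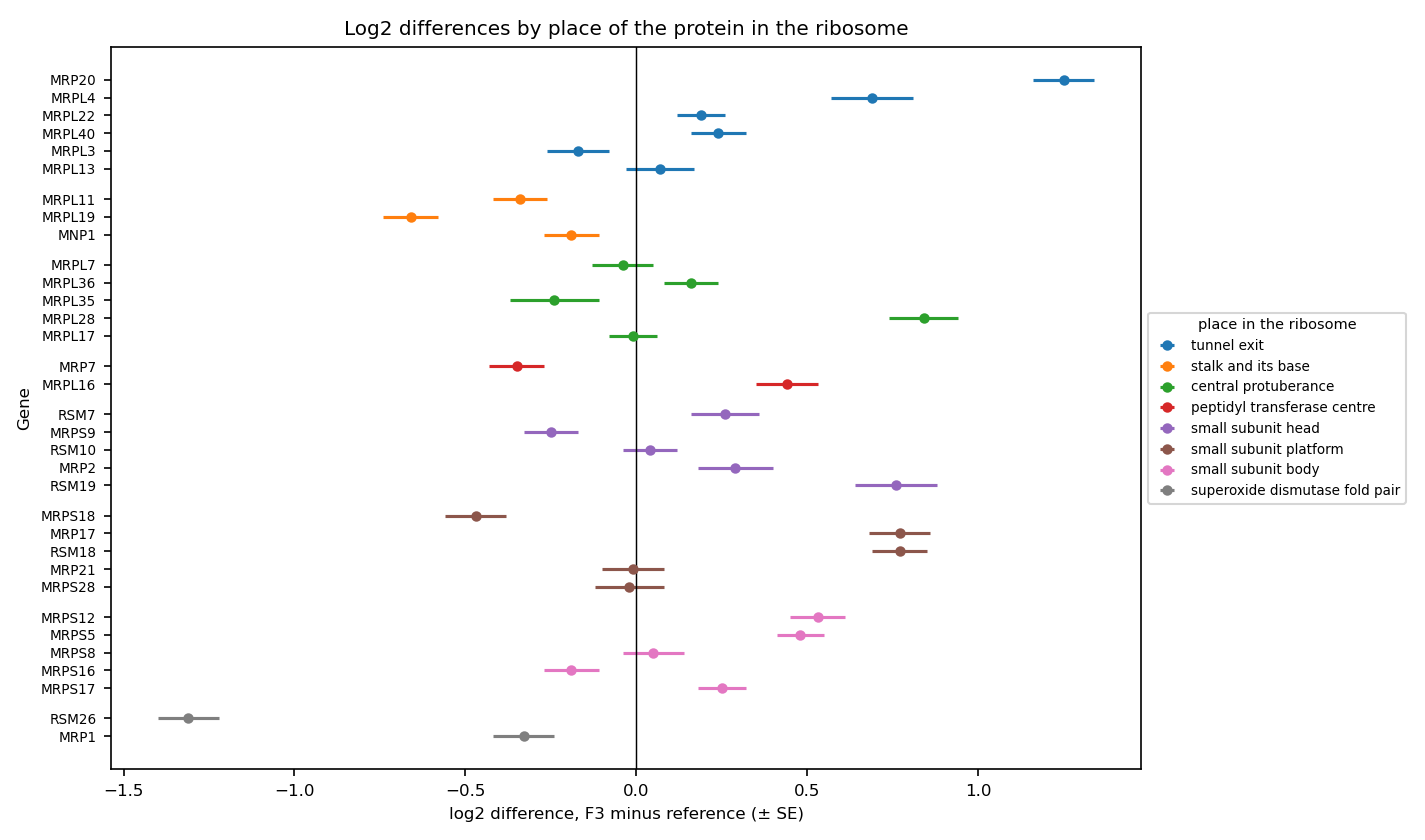
Log2 difference (F3 minus reference, x axis, ± SE) of genes grouped and coloured by the place of their protein in the ribosome or, for RSM26 and MRP1, by their shared fold. MNP1 is the one gene shown whose symbol is outside the naming rule. The 3 stalk genes lie between -0.66 and -0.19, the 6 tunnel exit genes between -0.17 and 1.25, and the central protuberance genes other than MRPL28 between -0.24 and 0.16.

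The remaining genes that rose had differences between 0.28 and 0.66. RSM28 (mS46), MRP10 (mS37) and RSM27 (mS33) of the small subunit differed by 0.66 ± 0.10, 0.58 ± 0.13 and 0.57 ± 0.11 (SE). MRP10, a small protein with paired cysteines, had levels of -1.35, -1.28 and -1.63 in F3 and -2.21, -1.99 and -1.79 in the reference, which came closest between F3 array 3 and reference array 3. MRPL31, MRP49, MRPL50, RSM23, MRPL1 and MRPL27 rose by between 0.45 and 0.51. Weaker rises were those of RSM24 (0.35), MRPL38 (0.28) and MRPL37 (0.28). The remaining falls were those of MRPL9 (-0.24), MRPL49 (-0.25) and MRP13 (-0.29). The genes not called and not yet named, MRPL44, MRPL15, MRPL6, MRPL8, MRPL20, MRPL25, RSM22, MRPL51 and RSM25, lay between -0.19 and 0.14.

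The calls that ended when an array was left out were those of small differences. Of the 45 calls, 36 stood when any 1 of the 6 arrays was left out (25 higher and 11 lower), and 9 did not. RSM7 was lost without F3 array 2 (0.17) or 3 (0.28), or reference array 2 (0.21) or 3 (0.26). MRP2 was lost without F3 array 1 (0.22) or 3 (0.32), or reference array 1 (0.27) or 2 (0.21). MRPL22 was lost without F3 array 1 (0.20), 2 (0.17) or 3 (0.20), or reference array 1 (0.18) or 2 (0.18), and MRPL37 without F3 array 1 (0.22) and MRPL40 without F3 array 2 (0.19). Of the falls, MRPS9 was lost without F3 array 1 (-0.21) or 3 (-0.22), or reference array 1 (-0.24) or 2 (-0.24). MRPL9 was lost without F3 array 1 (-0.24) or 3 (-0.22), or reference array 1 (-0.21) or 3 (-0.20). MRPL49 was lost without F3 array 1 (-0.24) or 3 (-0.21), or reference array 3 (-0.17), and MRP13 without F3 array 3 (-0.20) or reference array 2 (-0.27). In the other direction MRPL35 was called without reference array 1 (-0.36), MRPL51 without reference array 2 (-0.22) and RSM25 without F3 array 2 (-0.25). Each of these genes kept the sign of its difference in these fits, and none of them had a difference past 0.4 in either direction.

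The 66 genes lie on 14 chromosomes, with 12 on chromosome IV and 10 on chromosome XIV. Another annotated gene overlaps 3 of them: YPR099C, which differed by 0.46, lies over MRPL51, YHL005C over MRP4 and YNL184C over MRPL19. No difference was obtained for YHL005C or YNL184C. Whether the probes of MRPL51, MRP4 and MRPL19 also read the overlapping gene was not tested.

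Other proteins of the mitochondrial ribosome, whose symbols the rule does not take, were looked at next. Of 16 such genes 6 rose (37.5%) and 4 fell (25%), against 41.5% and 38.2% of all genes tested. Their median difference was 0.07, with 0.04 without F3 array 2 and 0.11 without F3 array 3. EHD3, described below, is among the 4 falls though it was dim in F3. With signal well above background required on all 6 arrays, 6 of 15 genes were higher and 3 lower. MRX14 (family bL34) had levels of -0.05, -0.13 and -0.18 in F3 and -1.27, -1.34 and -1.06 in the reference (1.10 ± 0.09 SE, adjusted p = 6.7e-06, limma), and PPE1, a protein found with the small subunit that also removes methyl esters, rose by 1.16 ± 0.08. PET123 rose by 0.83 ± 0.11, and YML6 (uL4) and RML2 (uL2) by 0.59 and 0.39. NAM9 (uS4) fell, with a difference of -0.34 ± 0.09 (adjusted p = 0.0081, limma), and MHR1 differed by 0.06 ± 0.07 (adjusted p = 0.475, limma). Much larger falls were those of VAR1 and EHD3. VAR1, the ribosomal protein encoded in mitochondrial DNA (family uS3), had levels of -4.80, -4.96 and -4.86 in F3 and -2.28, -2.15 and -1.13 in the reference, a difference of -3.02 ± 0.26 (adjusted p = 7.9e-06, limma). The arrays of VAR1 spread with an SD of 0.08 in F3 and 0.63 in the reference, where array 3 was highest, and did not overlap between strains. EHD3, an enzyme of valine breakdown that is also found in the small subunit, had a mean of -6.00 in the reference. Its mean in F3 was -10.34, where no array measured it well above background, so EHD3 was lower by at least 9.56-fold. EHD3 passed the filter only through the reference arrays, so no p-value is given for it. No F3 array measured its chromosomal neighbour ARO3 well above background either.

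Of the 8 protein genes in the mitochondrial genome, VAR1 included, 4 rose (50%) and 3 fell (37.5%), shares near the 41.5% and 38.2% of all genes tested. ATP6 (0.63, adjusted p = 0.043, limma) and OLI1 (-0.40, adjusted p = 0.050, limma) lay at the threshold. The counts were 3 higher and 2 lower with normexp, with no filter on dim probes, and without F3 array 1, 2 or 3 or reference array 1, 3 and 3 without reference array 2, and 4 and 2 without reference array 3, with quantile normalization, in the authors' values and with either block. COX1, COX2 and COB rose by 1.13, 1.21 and 1.22, and ATP8 fell by 2.43. The arrays of ATP8 spread with an SD of 0.07 in F3 and 0.77 in the reference, where array 3 was highest. Reference array 1 was the lowest of all arrays for COX1, COX2 and COB.

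Of 15 genes for mitochondrial translation factors and for enzymes that act on them or on tRNAs, 11 rose and 1 fell, with a median difference of 0.65. Of all genes tested 41.5% rose and 38.2% fell, and the difference between these 15 genes and the 66 ribosomal genes was not tested. MEF1, IFM1 and HER2, at 0.13, 0.07 and -0.01, did not pass. RRF1, the ribosome recycling factor, had levels of -0.49, -0.38 and -0.73 in F3 and -2.22, -1.97 and -1.78 in the reference, a difference of 1.45 ± 0.13 (SE, adjusted p = 9.5e-06, limma). AIM23, the initiation factor, rose by 1.33 ± 0.08, MTQ1, which methylates the release factor, by 1.26 ± 0.08, and TUF1, the elongation factor Tu, by 0.65 ± 0.08. MTO1, a tRNA modification enzyme, was the one that fell (-0.67 ± 0.12). Genes for assembly of the ribosome and modification of its RNA had 4 of 10 higher and 5 lower. The count of lower genes was 3 without F3 array 1, without F3 array 3 or without reference array 1. The GTPase MTG1 rose by 0.95 ± 0.09 and the methyltransferase MRM2 by 0.92 ± 0.10, whereas GEP3 (-1.78 ± 0.11), RMD9 (-1.62 ± 0.09) and the methyltransferase MRM1 (-1.01 ± 0.09) fell.

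Translational activators, which bring single mitochondrial messenger RNAs to the ribosome, had 6 of 17 genes higher (35.3%, against 41.5% of all genes) and 8 lower (47.1%, against 38.2%), with a median of -0.22 that was -0.14 without reference array 3. PET494 and PET122 act together on the messenger RNA of COX3, and PET494 rose by 1.11 ± 0.09 (SE) while PET122 was 4.01-fold lower. PET54, of the same list, rose by 0.29 ± 0.09. CBP4 and MSS51 rose by 1.31 and 0.80, and CBP1 and AEP3 fell by 1.16 and 0.94. At the inner membrane, MBA1, which holds the ribosome near the tunnel exit, had levels of -0.72, -0.73 and -0.93 in F3 and -1.77, -1.65 and -1.53 in the reference (0.86 ± 0.09, adjusted p = 3.9e-05, limma). OXA1, the insertase that takes up the new protein, had levels of 0.17, 0.14 and 0.14 in F3 and 0.47, 0.59 and 0.60 in the reference (-0.40 ± 0.07, adjusted p = 8.8e-04, limma). MDM38 and YLH47, ribosome-binding proteins of the membrane, fell by 0.62 and 0.83, so that 3 of the 7 genes of that list rose and 4 fell. Transcription and RNA turnover in mitochondria had 4 of 8 genes higher (50%) and 2 lower (25%), with a median of 0.21.

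A list of 12 regulators held those of mitochondrial biogenesis and also some of cytosolic ribosome genes. Of these 12 genes 6 rose (50%) and 4 fell (33.3%), shares near the 41.5% and 38.2% of all genes tested. HAP4, the activating subunit of the Hap complex that turns on respiratory genes, had levels of 1.56, 1.63 and 1.42 in F3. Its levels in the reference were -0.37, -0.25 and -0.24, a difference of 1.82 ± 0.08 (SE, adjusted p = 1.7e-07, limma). Of the other Hap subunits, HAP5 rose by 1.26 ± 0.09 and HAP2 by 0.74 ± 0.09. HAP3 fell by 0.40 (SE 0.08, adjusted p = 0.0013, limma) without overlap of the strains, so the Hap genes did not all change in 1 direction. With spike-in scaling 0 of the 12 regulators were called lower. PUF3, an RNA-binding protein that controls messenger RNAs for mitochondrial proteins, ribosomal ones among them, fell by 0.36 (SE 0.07, adjusted p = 0.0020, limma). IFH1, a coactivator of cytosolic ribosomal protein genes, fell by 1.24 (SE 0.09), and FHL1 by 0.56 (SE 0.10). SFP1, an activator of ribosome genes, differed by 0.08 ± 0.11 (adjusted p = 0.509, limma).

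The genes of the cytosolic ribosome had lower medians than those of the mitochondrial one. The medians of the mitochondrial ribosomal genes were 0.09, 0.10 and 0.10 with the 75th percentile, quantile normalization and the authors' values, and those of 137 genes for cytosolic ribosomal proteins -0.92, -0.69 and -0.66. Of the cytosolic genes 128 fell, 1 rose, and for 8 there was no call. The middle 50% of the mitochondrial genes lay between -0.19 and 0.48, and that of the cytosolic genes between -1.19 and -0.69. With spike-in scaling the medians were 1.80 for the mitochondrial and 0.79 for the cytosolic ribosome, so the order of the groups was the same while the sign of the cytosolic median was turned. The nuclear genes of the respiratory chain and ATP synthase had a median of 0.32, with 21 of 38 higher and 8 lower (41.5% and 38.2% of all genes), and 8 of them were called at least 2-fold, 7 higher and 1 lower. The count of lower genes was 4 without F3 array 3 and 5 without reference array 3. The differences between these groups were described by medians and counts and not tested.

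**Figure D4:**
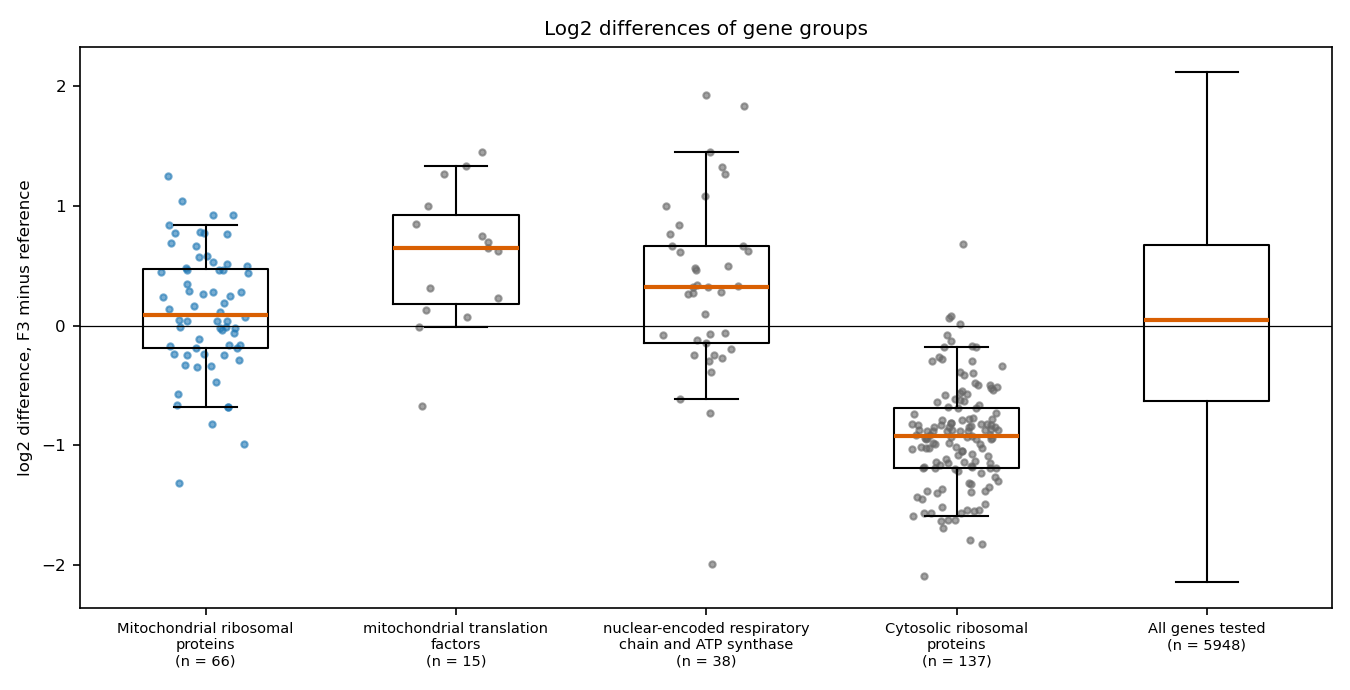
Log2 difference (F3 minus reference, y axis) of genes in 5 groups; points are genes (not drawn for all genes tested), boxes span the middle 50% with the median in orange, and whiskers run from the 5th to the 95th percentile. The median of the mitochondrial ribosomal proteins (0.09) lies close to that of all genes (0.05), that of the cytosolic ribosomal proteins at -0.92, and the box of the mitochondrial ribosomal proteins is narrower than that of all genes.

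**Figure D5:**
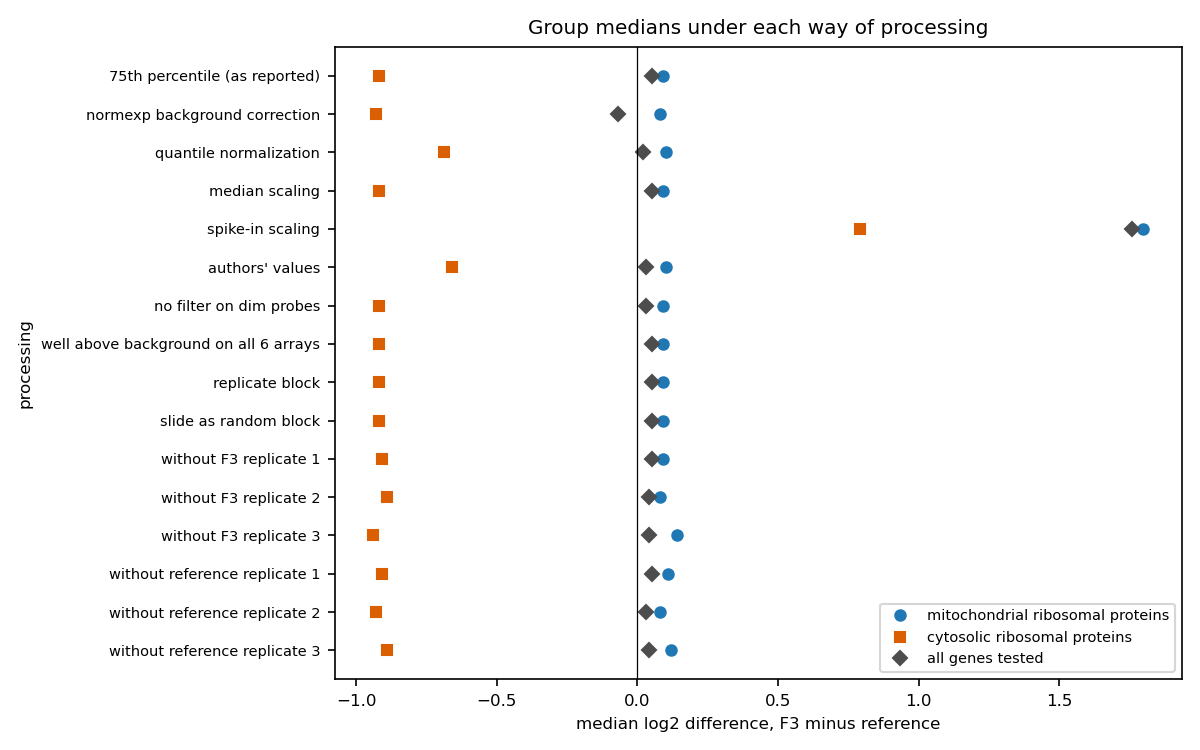
Median log2 difference (F3 minus reference, x axis) of the mitochondrial ribosomal proteins, the cytosolic ribosomal proteins and all genes tested under each way of processing (y axis). With spike-in scaling the medians are 1.80, 0.79 and 1.76; under every other way of processing shown the mitochondrial median lies near that of all genes and the cytosolic one below 0.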

How the data were processed

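The software was Agilent Feature Extraction, version 10.7.3.1 per the file headers and version 9.1 per the submitters' processing notes. The deposited processed signal is an intensity that was background-subtracted and detrended within each array. The flag for spots well above background is from the deposited files. The series' value table, deposited by the authors, holds log2 values centred per probe on the median over the arrays, with scaling between arrays not stated, and was used as an alternative. Control spots were left out. From log2 signals the array's 75th percentile was subtracted, and the 2 spots of each probe were averaged. The comparison of strains used limma 3.58.1 under R 4.3.3 (functions lmFit and eBayes, two-sided, no covariates, Benjamini-Hochberg adjustment over 5948 genes, threshold 0.05). A gene counted as well above background on an array if at least 1 of its spots did. Errors given with ± are SE of the fit unless stated. The fit was tested on simulated data for F3 against reference with 5948 genes, where 67, 67 and 66 genes had log2 changes of 0.5, 1 and 2. It recovered 61.2%, 94% and 100% of these changes, and 4.49% of its calls were false. In the data 79.7% of genes were called, and neither slide nor day of scanning was simulated, so these rates may not hold for the data. Symbols came from the RefSeq gene table of assembly R64 (5756 names matched by locus tag, 23 by synonym, 477 kept as in the files). The array design's genome build was not matched to R64, so no coordinates are given. Normexp was run on the deposited median intensity of spot and background.

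The genes, subunits and lists were chosen with earlier results of these data known. In the text, the 8 largest rises and falls among called genes without overlap and 9 genes of known function get full values. The other mitochondrial ribosomal genes are named with their difference or a range of differences, and a few of them with full values. From the other lists only a part of the genes is named, some with full values and some with a difference. Some of the leading genes of those lists are not named. The grouping by place in the ribosome and the naming of ARO3 were chosen after values were seen. Where no array of a strain measured a gene well above background, the fold is a bound: the dim strain's arrays were raised to the lowest signal well above background where the gene lay below it. With 3 arrays a strain an exact permutation test could not go below 0.1. Same-numbered arrays of the strains correlated with -0.15, 0.08 and -0.25 in their deviations from the strain means, so the numbers were not taken as pairs. Promoter and protein sequences were not used here.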

Additional observations from a re-analysis of the deposited data

How the results depend on the processing

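Scaling between arrays decided the direction of the falls. With spike-in scaling the counts of mitochondrial ribosomal genes were 65 higher and 0 lower (median 1.80), with 38 and 0 in the large (1.84) and 27 and 0 in the small subunit (1.76), while all genes gave 5092 higher and 255 lower (median 1.76). The 1 gene not called was RSM26 (0.40, adjusted p = 0.188, limma). The signs of these differences were turned, giving 1.38 for MRP1, 1.42 for MRP13, 1.70 for MRP21, 1.03 for MRP4, 1.60 for MRP51, 1.36 for MRP7, 1.03 for MRPL10, 1.37 for MRPL11, 1.71 for MRPL17, 1.05 for MRPL19, 1.70 for MRPL20, 0.72 for MRPL23, 1.65 for MRPL25, 1.54 for MRPL3, 1.14 for MRPL33, 1.47 for MRPL35, 1.46 for MRPL49, 1.55 for MRPL51, 1.67 for MRPL7, 1.47 for MRPL9, 1.52 for MRPS16, 1.24 for MRPS18, 1.69 for MRPS28, 0.89 for MRPS35, 1.46 for MRPS9, 1.55 for RSM22 and 1.52 for RSM25. The same held for other genes named: 1.37 for NAM9, 1.52 for MNP1, 1.04 for MTO1, 0.09 for RMD9, 0.70 for MRM1, 0.55 for CBP1, 0.77 for AEP3, 1.31 for OXA1, 0.88 for YLH47, 1.09 for MDM38, 1.35 for PUF3 and 0.47 for IFH1.

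Under normexp, quantile or median scaling, the authors' values, no filter, a stricter filter and the slide as a random block (consensus correlation 0), the counts of mitochondrial ribosomal genes were 27 to 30 higher and 15 or 16 lower, and no called gene among them changed sign. Normexp ended the calls of MRP2 (0.23), MRPL22 (0.19), MRPL40 (0.19) and RML2 (0.27), and MRPL51 was called with normexp (-0.21), quantile normalization (-0.19) and the authors' values (-0.19). With the replicate block the counts were 28 higher and 13 lower; MRPL22 (0.19), MRPL49 (-0.25), MRPL9 (-0.24) and RSM7 (0.26) were lost. The same-numbered arrays share only a number. Leaving out 1 array gave 27 to 29 higher and 11 to 16 lower, with a median between 0.08 and 0.14, with 15 to 17 higher and 6 to 9 lower in the large subunit (median 0.10 to 0.16) and 11 or 12 higher and 5 to 8 lower in the small (median 0.01 to 0.10). RML2 was lost without F3 array 2 (0.32) or reference array 2 (0.35) or 3 (0.29). The precision is limited by 3 arrays a strain. The cause of each change was not tested.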
